A study of Mus musculus with 24 samples.

Results

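Natural killer T cells with an invariant receptor (iNKT cells) are known for releasing many cytokines within hours of meeting a lipid antigen. The genes described here are 10 cytokine genes of such cells: Ifng, Il4, Il13, Il2, Il21, Il10, Csf2, Tnf, Lta and Lif. They were taken by name from a deposited table of 55335 genes, and all 10 were found and were among the 15953 genes that had enough counts to be tested. RNA of sorted iNKT cells from mesenteric lymph nodes was sequenced in 24 libraries, in 8 groups of 3. All mice were C57BL/6J. Their dams had received fecal transplants, from wild-type donors in the WT FT groups and from CD1d-knockout donors in the KO FT groups, so every group carries a transplant and no group is free of one. Each group was either given 2 µg of alpha-galactosylceramide (aGC) in 200 µL PBS by mouth, or PBS alone, and cells were taken after 24 h from females or males. The 8 groups are thus WT FT PBS females, WT FT PBS males, WT FT aGC females, WT FT aGC males, KO FT PBS females, KO FT PBS males, KO FT aGC females and KO FT aGC males. The age of the mice, how cells were gated and how many mice made up a library were not given in the sources used here. Labels number the libraries of a group without saying that they come from separate animals, so p-values here reflect only how these libraries vary, and that variation may be technical.

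CD1d is the molecule that presents lipids to the receptor of iNKT cells, and aGC is the lipid most used to stimulate them. iNKT cells differ from naive T cells in that they already carry cytokine messages and open cytokine genes before they meet antigen, and they can release interferon gamma and interleukin 4 together. Interferon gamma activates macrophages and natural killer cells, and interleukin 4 and interleukin 13 act on B cells, epithelium and macrophages. Tumor necrosis factor and lymphotoxin alpha act on stroma and on other leukocytes, and interleukin 2, interleukin 21, GM-CSF (the product of Csf2) and LIF act on lymphocytes, myeloid cells and stroma. Interleukin 10 restrains inflammation. Genes of this kind are switched on by NFAT, AP-1 and NF-kappa-B downstream of the T cell receptor, and their messages are short-lived because proteins that bind their RNA mark them for decay.

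Several of the genes lie side by side. In GENCODE M21, on build GRCm38, Il4 (chromosome 11, 53602982 to 53618669, minus strand) and Il13 (chromosome 11, 53631324 to 53634702, minus strand) are 12.7 kb apart. Csf2 (chromosome 11, 54247271 to 54249667, minus strand) lies 613 kb further on. Tnf (chromosome 17, 35199381 to 35202007, minus strand) and Lta (chromosome 17, 35203165 to 35205351, minus strand) are 1.16 kb apart, and Il2 (chromosome 3, 37120523 to 37125959, minus strand) and Il21 (chromosome 3, 37222759 to 37232636, minus strand) are 96.8 kb apart. Ifng (chromosome 10, 118441046 to 118445892, plus strand), Il10 (chromosome 1, 131019845 to 131024974, plus strand) and Lif (chromosome 11, 4257557 to 4272514, plus strand) have no other member near them. The libraries do not keep the strand, so reads in exons shared with an overlapping gene cannot be assigned by strand. Ifng overlaps Gm49751, which reached 6.64 CPM at most, in WT FT aGC females, and the genes that overlap Il2, Il21, Csf2 and Lta (Adad1, Gm12534, Gm12223 and Mir6974) stayed at or under 0.661 CPM in every library.

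RefSeq promoter windows of build GRCm38.p6 were found for 9 of the 10 genes, all but Il10. The RefSeq start site of Csf2 lies 232 bases upstream of its GENCODE start, so its window lacks the bases next to the latter. For the other genes the 2 starts are at most 11 bases apart. The 250 bases upstream of the start site are shown for the neighbours Il4 and Il13, which are far apart in level, for Ifng and Tnf, which rose in every group, and for Lif, whose PBS level was uneven. Each is written 5′ to 3′ on the strand of the gene. Capitals mark GGAAA or its reverse complement, the core of NFAT sites, and TGANTCA, the AP-1 site.
Ifng (chr10:118440796-118441045, plus strand): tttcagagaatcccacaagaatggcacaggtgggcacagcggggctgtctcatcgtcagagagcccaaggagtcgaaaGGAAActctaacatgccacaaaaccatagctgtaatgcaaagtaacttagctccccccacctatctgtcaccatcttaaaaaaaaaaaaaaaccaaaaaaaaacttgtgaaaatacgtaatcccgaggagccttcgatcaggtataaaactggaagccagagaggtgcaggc
Il4 (chr11:53618666-53618915, minus strand): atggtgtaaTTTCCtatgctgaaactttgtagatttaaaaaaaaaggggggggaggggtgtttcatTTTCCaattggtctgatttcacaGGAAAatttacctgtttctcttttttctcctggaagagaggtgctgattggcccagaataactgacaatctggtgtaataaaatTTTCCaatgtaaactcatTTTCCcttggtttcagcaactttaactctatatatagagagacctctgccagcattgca
Il13 (chr11:53634703-53634952, minus strand): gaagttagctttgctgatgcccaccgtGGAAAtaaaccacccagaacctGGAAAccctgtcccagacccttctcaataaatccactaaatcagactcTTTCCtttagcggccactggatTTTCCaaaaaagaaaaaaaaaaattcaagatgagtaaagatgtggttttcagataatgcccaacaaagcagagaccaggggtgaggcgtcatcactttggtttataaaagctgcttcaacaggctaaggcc
Tnf (chr17:35202008-35202257, minus strand): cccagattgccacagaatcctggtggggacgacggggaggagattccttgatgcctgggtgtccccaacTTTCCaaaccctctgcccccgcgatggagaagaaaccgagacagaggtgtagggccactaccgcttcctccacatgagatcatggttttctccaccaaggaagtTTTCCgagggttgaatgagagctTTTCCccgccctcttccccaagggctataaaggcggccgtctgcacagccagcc
Lif (chr11:4257318-4257567, plus strand): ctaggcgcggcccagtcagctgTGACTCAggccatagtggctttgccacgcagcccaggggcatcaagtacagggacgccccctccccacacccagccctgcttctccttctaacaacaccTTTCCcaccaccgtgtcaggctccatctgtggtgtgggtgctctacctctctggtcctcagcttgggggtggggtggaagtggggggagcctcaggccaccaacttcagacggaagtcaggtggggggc
GGAAA, searched on both strands, was present in 9 of 9 windows, against 55.6% of all 32851 RefSeq promoter windows of the same length. Il4 held 5 matches, Il13 held 4, and Il21 and Tnf held 3 each. The other windows held 1 or 2, while 6.39% of all windows held 3 or more. TATAAA, searched on the strand of the gene, was present in 5 of 9 windows (Ifng, Il13, Il2, Tnf and Lta) against 7.59% of all windows. The palindromic AP-1 motif TGANTCA was present in Lif alone, 1 of 9, against 6.75% of all. The NF-kappa-B motif, a spaced pattern searched on both strands, was in 0 of 9 windows, against 1.41% of all, which says only that these letters are not in these windows. A match describes the letters of the window and does not show that a factor binds there.

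Total counts per library ranged from 9764931 to 37016768, so that 3 counts, the limit that a count of 0 allows, correspond to 0.0810 to 0.307 CPM (counts scaled to a library of 1000000, and for the levels below by TMM too). Xist, expressed from the inactive X chromosome, measured 8.76 to 48.3 CPM in the 12 libraries labelled female and at most 0.646 CPM in the 12 labelled male, and the Y-linked gene Ddx3y at most 0.471 CPM in the former and 41.2 to 78.6 CPM in the latter. The sex labels thus match these genes, while an exchange of transplant or treatment labels within a sex was not tested. The summed level of 13 markers of T cells and iNKT cells was high in every group and lower after aGC. This sum went from 13264 to 9954 CPM in WT FT females, from 12628 to 9421 CPM in WT FT males, from 14478 to 9738 CPM in KO FT females and from 12436 to 9994 CPM in KO FT males, as group means. Not every marker fell. Cd4 rose in females, from 118 to 203 CPM with WT FT and from 101 to 205 CPM with KO FT. In males Cd4 fell, from 156 to 100 CPM and from 215 to 169 CPM. The sum of 9 B cell markers averaged 984 to 1062 CPM in the PBS groups and 478 to 712 CPM in the aGC groups. The part of these shifts in the rise of the members was not tested. Cd3e averaged 719 to 1100 CPM by group, and Trav11, a variable segment of the invariant receptor, averaged 336 to 848 CPM. Cd8a, a marker of conventional CD8 T cells that mouse iNKT cells are known to lack, split the groups. It averaged 287 CPM in WT FT PBS males, 245 CPM in WT FT aGC females, 136 CPM in KO FT PBS males and 189 CPM in KO FT aGC females, and between 5.20 and 7.59 CPM in the other 4 groups. The summed level of all 4 markers of conventional CD8 T cells ran from 403 to 873 CPM in the first 4 groups and from 17.4 to 52.8 CPM in the others. The split of this sum rests on Cd8a and Cd8b1. Gzmk was at 0 in WT FT aGC females and KO FT PBS males, both high in Cd8a, and Eomes rose after aGC, as given below. Cd8b1, the gene of the other CD8 chain, moved the same way as Cd8a, with group means of 258 to 573 CPM in the first 4 groups and 6.68 to 12.3 CPM in the others. Treatment within one sex therefore always crosses a group high and a group low in Cd8a, while KO FT and WT FT of one sex and treatment are both high or both low. Among the high groups the transplants still differed, as in PBS males, where Cd8a averaged 287 CPM with WT FT and 136 CPM with KO FT and Cd8b1 573 CPM and 258 CPM. The split was not limited to the CD8 genes. The summed level of 6 naive T cell markers averaged 2585 to 3272 CPM in the groups high in Cd8a and 1336 to 1700 CPM in the others. Foxp3 averaged 2.75 to 17.8 CPM in the former and 0 to 1.18 CPM in the latter. The sum of 3 regulatory T cell markers, Foxp3 among them, overlapped, at 16.8 to 36.2 CPM and 16.0 to 21.8 CPM. The part of conventional CD8, naive and regulatory T cells in the results was not tested beyond the comparisons of groups with like Cd8a given below. Of the 4 markers of mast cells and basophils, cells known to make interleukins 4 and 13, Mcpt8 and Fcer1a were at 0 in every library and the sum of all 4 was at most 1.92 CPM. Natural killer cell and ILC1 markers (4 genes) summed to 0.558 to 7.24 CPM over the libraries, and ILC2 markers (4 genes) to 1.48 to 11.5 CPM. In bulk RNA of a sort, fewer cells that express a gene and less RNA per cell cannot be told apart.

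Ifng, the gene of interferon gamma, was several-fold higher after aGC in every group. In WT FT females it measured 18.8, 17.7 and 18.7 CPM in the 3 PBS libraries and 117, 114 and 109 CPM in the 3 aGC libraries, and in WT FT males 14.9, 14.4 and 14.8 CPM against 135, 125 and 138 CPM. In KO FT females the PBS libraries gave 23.9, 28.3 and 24.8 CPM and the aGC libraries 99.0, 83.0 and 73.1 CPM, and in KO FT males the values were 11.8, 13.1 and 13.4 CPM against 66.5, 72.9 and 67.8 CPM. PBS and aGC libraries were far apart in all 4 cases, and the 8 groups did not overlap between neighbours in the order of their means, from WT FT aGC males at the top to KO FT PBS males at the bottom. The log2 change was 2.62 ± 0.09 (SE) in females and 3.18 ± 0.09 in males with WT FT, a 6.15-fold and a 9.04-fold rise. It was 1.73 ± 0.09 in KO FT females and 2.43 ± 0.10 in KO FT males, a 3.31-fold and a 5.39-fold rise. All 4 passed edgeR's quasi-likelihood test with Benjamini-Hochberg adjustment, with adjusted p-values of at most 9.28e-14. Natural killer cells also make interferon gamma. The sum of the 4 markers of these cells and ILC1 went from a mean of 2.76 to 6.44 CPM in WT FT males and from 1.11 to 6.04 CPM in KO FT males, while in KO FT females the libraries gave 2.95 to 3.79 CPM with PBS and 4.44 to 5.84 CPM with aGC. In WT FT females it went from 2.50 to 0.881 CPM, with Ncr1 and Klra8 at 0 after aGC, where Ifng averaged 113 CPM. In WT FT aGC males Klra8 was at 0 and Ncr1 and Klra4 averaged under 1 CPM, so Klrg1 carried most of the sum. In both KO FT aGC groups Klra8 and Klra4 averaged under 1 CPM, and Ncr1 and Klrg1 carried most of it. The part of these cells in the rise was not tested.

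Il4, the gene of interleukin 4, was above Ifng per kilobase of exon in every group and rose less. It measured 58.4, 56.7 and 55.1 CPM in WT FT PBS females and 109.9, 115 and 105 CPM in WT FT aGC females. In males the values were 29.1, 31.6 and 32.3 CPM and 182, 177 and 188 CPM, so that males were below females on PBS and above them on aGC. The same crossing was seen with KO FT, where PBS and aGC gave 53.5, 56.8 and 61.0 CPM and 107, 85.2 and 88.1 CPM in females and 34.6, 41.2 and 31.6 CPM and 127, 136 and 139 CPM in males. The rise was 1.94-fold in WT FT females (log2 change 0.95 ± 0.08) and 5.87-fold in WT FT males (log2 change 2.55 ± 0.09). It was 1.63-fold in KO FT females (log2 change 0.71 ± 0.09) and 3.70-fold in KO FT males (log2 change 1.89 ± 0.09). All 4 rises passed edgeR's test, the weakest with an adjusted p of 2.29e-07.

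Tnf, the gene of tumor necrosis factor, rose by 4.08-fold to 5.85-fold. Group means were 30.9 ± 1.38 CPM (SD, n = 3) in WT FT PBS females, 28.6 ± 1.47 CPM in WT FT PBS males, 30.5 ± 3.09 CPM in KO FT PBS females and 25.6 ± 1.54 CPM in KO FT PBS males. After aGC they were 127 ± 1.84 CPM, 168 ± 10.6 CPM, 143 ± 2.82 CPM and 129 ± 0.149 CPM in the same order, and no aGC library was within the range of the PBS libraries. The log2 changes were 2.03 ± 0.07 and 2.55 ± 0.07 in WT FT females and males and 2.22 ± 0.07 and 2.33 ± 0.07 in KO FT females and males, with adjusted p-values of at most 2.35e-17 by edgeR. Its neighbour Lta, the gene of lymphotoxin alpha, rose by 1.99-fold to 2.53-fold. It went from 37.5, 37.6 and 35.4 CPM to 86.0, 79.9 and 78.6 CPM in WT FT females and from 29.7, 29.5 and 32.9 CPM to 59.9, 63.8 and 59.8 CPM in KO FT females. In males it went from 44.9, 43.8 and 44.5 CPM to 99.6, 101 and 96.2 CPM with WT FT and from 36.1, 34.9 and 35.7 CPM to 87.4, 89.7 and 92.8 CPM with KO FT. The PBS and aGC libraries of Lta were separate in all 4 cases, and the 4 adjusted p-values of edgeR's test were at most 1.62e-12.

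Il2, the gene of a T cell growth factor, was close to absent after PBS, with 0 to 11 counts in a library and group means of 0.0967 to 0.426 CPM. After aGC it measured 4.52, 3.18 and 5.64 CPM in WT FT females, 4.29, 5.20 and 4.11 CPM in WT FT males, 2.72, 2.83 and 2.75 CPM in KO FT females and 3.35, 4.34 and 3.82 CPM in KO FT males. Every aGC library lay above every PBS library. The log2 changes, 4.62 ± 0.49, 3.77 ± 0.45, 2.69 ± 0.45 and 5.04 ± 0.54 in that order, have wide errors because the PBS level rests on so few counts. Il21, its neighbour on chromosome 3, encodes a cytokine that helps B cells and follicular T cells. It had 1 to 9 counts per PBS library, with group means of 0.108 to 0.362 CPM. After aGC it measured 2.63, 2.62 and 2.07 CPM in WT FT females and 5.35 ± 1.45 CPM in WT FT males (65, 105 and 58 counts), and 0.705, 1.65 and 1.13 CPM in KO FT females and 2.81, 2.95 and 3.35 CPM in KO FT males. Both aGC groups of males were above both aGC groups of females. The log2 changes were 2.90 ± 0.45 and 4.76 ± 0.47 with WT FT and 3.18 ± 0.55 and 4.89 ± 0.55 with KO FT, females first. For both genes all 4 rises passed edgeR's test, with adjusted p-values of at most 3.23e-05.

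**Figure D1:**
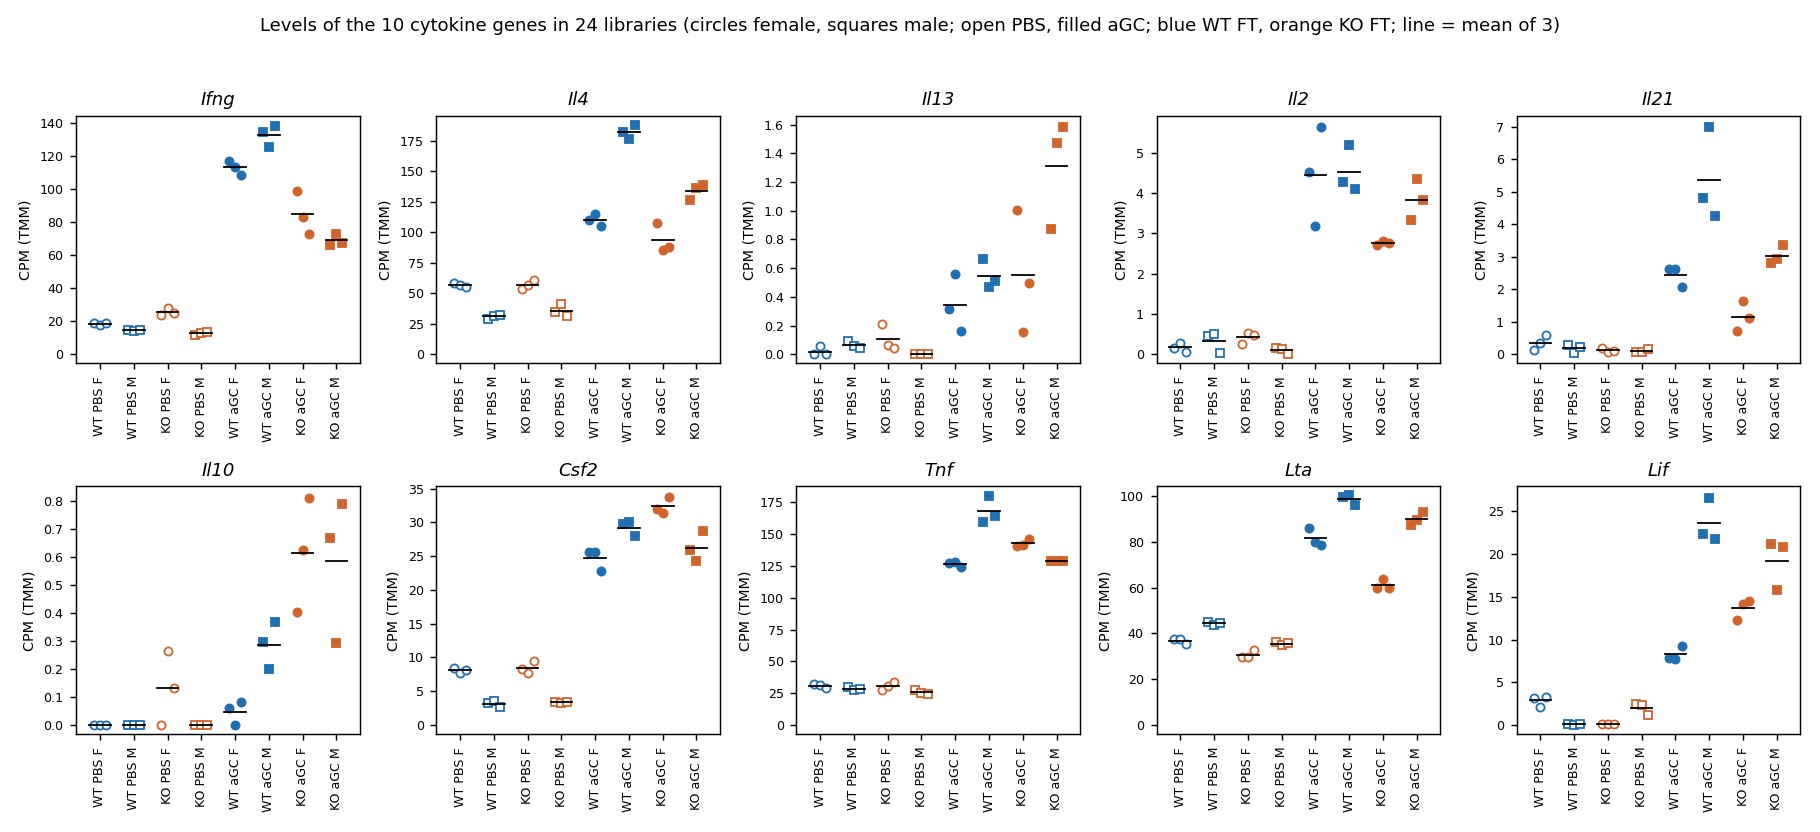
The 24 values of each of the 10 genes, in CPM scaled by TMM on a linear axis from 0, one panel per gene. Circles are females and squares males, open symbols PBS and filled symbols aGC, blue WT FT and orange KO FT, and the line is the mean of 3 libraries. Filled symbols lie above open ones in nearly every panel, and Lif has 2 PBS groups near 0 and 2 groups near 2 to 3 CPM.

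Csf2, which encodes GM-CSF, a growth factor of myeloid cells, was lower in every male than in every female library after PBS, and higher in every aGC library than in any PBS library. It measured 8.43, 7.70 and 8.19 CPM in WT FT PBS females and 3.27, 3.49 and 2.73 CPM in WT FT PBS males, and 8.26, 7.76 and 9.46 CPM and 3.41, 3.25 and 3.38 CPM in KO FT PBS females and males. After aGC it measured 25.6, 25.6 and 22.7 CPM in WT FT females, 29.8, 30.0 and 27.9 CPM in WT FT males, 31.9, 31.4 and 33.8 CPM in KO FT females and 25.8, 24.3 and 28.6 CPM in KO FT males. The rise was 3.04-fold and 3.80-fold in females with WT FT and KO FT, and 9.25-fold and 7.89-fold in males. The log2 changes behind these folds were 1.60 ± 0.10, 1.92 ± 0.10, 3.21 ± 0.11 and 2.98 ± 0.12, all past edgeR's test with an adjusted p of at most 3.21e-12.

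Lif, which encodes leukemia inhibitory factor, a relative of interleukin 6, had an uneven PBS level. WT FT PBS females gave 3.20, 2.13 and 3.32 CPM and KO FT PBS males 2.48, 2.37 and 1.16 CPM, while WT FT PBS males held 3, 0 and 4 counts and KO FT PBS females 3, 2 and 2 counts. After aGC every group was above all PBS libraries, with 7.90, 7.75 and 9.21 CPM in WT FT females, 22.4, 26.6 and 21.8 CPM in WT FT males, 12.3, 14.2 and 14.6 CPM in KO FT females and 21.2, 15.8 and 20.8 CPM in KO FT males. The log2 changes therefore differed widely, from 1.51 ± 0.22 in WT FT females and 3.21 ± 0.23 in KO FT males to 6.72 ± 0.35 in KO FT females and 7.63 ± 0.34 in WT FT males. All 4 passed edgeR's test, with an adjusted p of at most 3.39e-06. Of the groups with a high PBS level of Lif, WT FT PBS females were low in Cd8a and KO FT PBS males were high in it. The source of the uneven PBS level was not tested.

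Il13, the neighbour of Il4, stayed at very low counts. PBS libraries held 0 to 2 counts except for 1 library of KO FT PBS females with 4, and all 3 libraries of KO FT PBS males held 0. After aGC the 3 libraries held 5, 10 and 2 counts in females and 9, 7 and 7 in males with WT FT, and 10, 2 and 8 in females and 13, 20 and 34 in males with KO FT. The aGC libraries were above the PBS libraries in 3 of the 4 cases and overlapped them in KO FT females. Over the 3 libraries of KO FT males together, Il13 was at least 24.0-fold higher after aGC, against the 3 counts that a sum of 0 allows. All 4 rises passed edgeR's test, but the one in KO FT females (log2 change 2.26 ± 0.75, adjusted p 0.0142) lost its call without replicate 3 of the PBS group (adjusted p = 0.0727) or replicate 1 of the aGC group (adjusted p = 0.108). In the library with the most Il13, replicate 3 of KO FT aGC males, Il13 measured 1.58 CPM. Markers of other cells known to make this message reached 1.92 CPM for the 4 genes of mast cells and basophils (Mcpt8 and Fcer1a at 0) and 11.5 CPM for the 4 genes of ILC2, and their part was not tested. Both sums had their highest group mean in KO FT PBS females, 1.69 and 10.6 CPM, and averaged 0.298 and 5.27 CPM in KO FT aGC males. In both of these groups the ILC2 genes Il1rl1, Areg and Calca each averaged under 1 CPM, so Arg1 carried most of the ILC2 sum. Areg was at 0 in KO FT PBS females and Calca in KO FT aGC males.

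Il10, the gene of the restraining cytokine interleukin 10, was scarce. Both WT FT PBS groups and KO FT PBS males had 0 counts in all libraries, and KO FT PBS females had 0, 4 and 3. After aGC the counts were 1, 0 and 1 in females and 4, 3 and 5 in males with WT FT, and 4, 8 and 13 in females and 10, 4 and 17 in males with KO FT. Against the 3 counts that a group sum of 0 allows, Il10 was at least 5.89-fold higher after aGC in WT FT males and at least 11.1-fold higher in KO FT males. The rise passed edgeR's test in WT FT males (adjusted p = 0.00192), KO FT males (adjusted p = 0.000444) and KO FT females (adjusted p = 0.0230), and not in WT FT females (adjusted p = 0.123), where 2 counts in all were seen. The call in KO FT females was lost without replicate 1 of the PBS group (adjusted p = 0.0886), replicate 3 of the PBS group (adjusted p = 0.0679) or replicate 3 of the aGC group (adjusted p = 0.0931), without the filter on low counts (adjusted p = 0.0567) and with DESeq2 (adjusted p = 0.0537). Regulatory T cells are another source of this message. Foxp3, which defines them, averaged 1.18 and 17.8 CPM in WT FT PBS females and males, 0 and 2.75 CPM in KO FT PBS females and males, 6.53 and 0.927 CPM in WT FT aGC females and males and 6.94 and 1.08 CPM in KO FT aGC females and males. The 3 markers of these cells summed to 14.8 to 38.5 CPM over the libraries, and their part in the rise of Il10 was not tested.

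After aGC, 9 of the 10 members were called higher in WT FT females, where 28.6% of all tested genes were, and 10 of 10 in WT FT males, where 31.7% were. In KO FT females 10 of 10 were called higher against 27.7% of all genes, and in KO FT males 10 of 10 against 26.8%. Il13, Il2, Il21 and Il10 passed the filter on low counts only through their aGC libraries. The filter thus favoured a rise for them, in these counts and those below. The other members, Ifng, Il4, Csf2, Tnf, Lta and Lif, were called higher in all 4 cases. All aGC libraries were above all PBS libraries for 9 members in WT FT females, 10 in WT FT males, 9 in KO FT females and 10 in KO FT males, while 31.9%, 33.2%, 29.9% and 27.5% of all genes were separate and higher. The median log2 change of the members was 2.32, 3.19, 2.24 and 3.10 in the 4 cases, against -0.05, -0.08, -0.01 and -0.03 for all tested genes. With genes at 0 in a group set to their bound, and those with at most 3 counts in both groups left out, the members' medians were 2.03, 3.07, 2.24 and 3.10. Averaged over the sexes, all 10 members were higher with WT FT, against 30.9% of all genes, and all 10 with KO FT, against 28.1%.

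**Figure D2:**
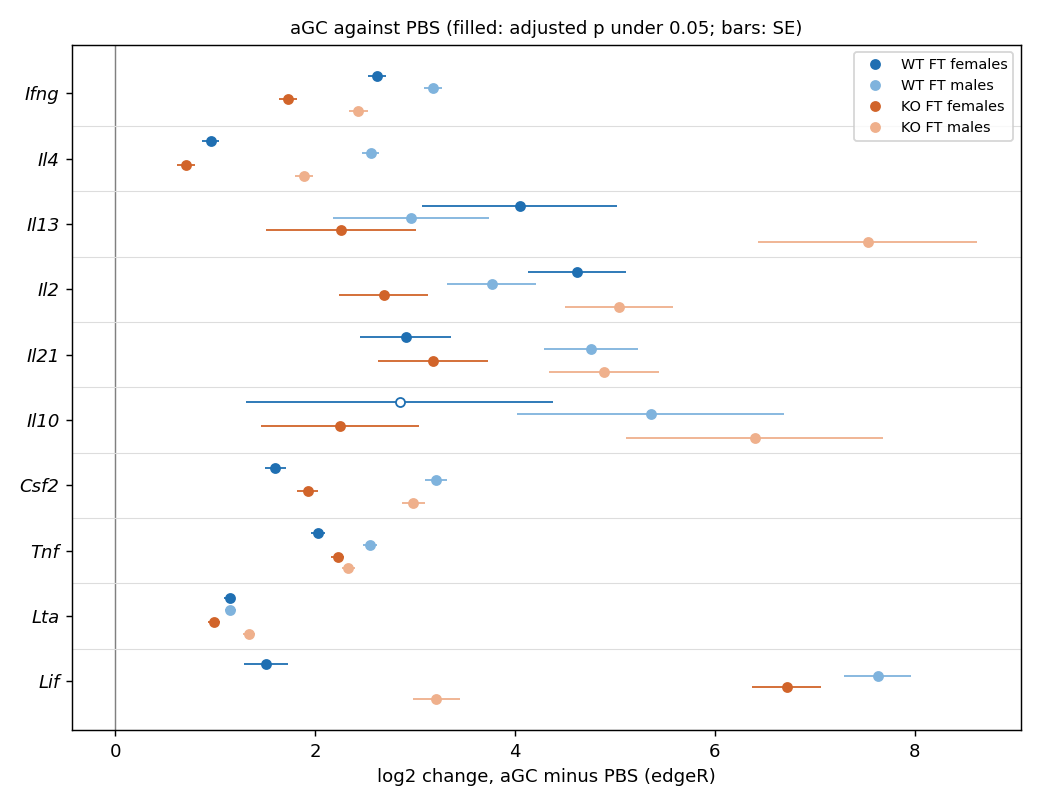
Log2 change from PBS to aGC (x axis) of the 10 genes (y axis) in WT FT and KO FT females and males, with bars of 1 SE from edgeR's fit. Filled points passed an adjusted p of 0.05, and every point but that of Il10 in WT FT females is filled. The points of Il10 and Il13 where PBS counts are 0 depend on the fit and are no bounds.

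The rise was also seen between groups of like Cd8a. Among groups low in Cd8a, where PBS females were compared with aGC males, all 10 members rose with WT FT, against 28.2% of all tested genes, and all 10 with KO FT, against 25.6%. There the log2 change was 2.85 ± 0.09 and 1.43 ± 0.09 for Ifng with WT FT and KO FT, 1.68 ± 0.09 and 1.23 ± 0.08 for Il4, and 2.44 ± 0.07 and 2.07 ± 0.07 for Tnf. Among groups high in Cd8a, PBS males against aGC females, 9 of 10 rose with WT FT (all but Il10, adjusted p = 0.131), against 30.2% of all genes, and 10 of 10 with KO FT, against 25.4%. The log2 change was 2.95 ± 0.09 and 2.73 ± 0.10 for Ifng, 1.83 ± 0.09 and 1.37 ± 0.09 for Il4, and 2.14 ± 0.07 and 2.48 ± 0.07 for Tnf. These comparisons, chosen after the data were seen, cross the sexes. The limit that the filter sets for Il13, Il2, Il21 and Il10 holds for the counts in this paragraph too. When the 3 libraries of each group were summed to 1 profile, so that groups and not libraries set the spread, 7 of 10 members passed with WT FT (Ifng, Il4, Il2, Il21, Csf2, Tnf and Lta), where 7.39% of all genes were called higher, and 4 of 10 with KO FT (Ifng, Csf2, Tnf and Lta), where 1.92% were. That fit held transplant, treatment, their interaction and sex, with 3 residual degrees of freedom. Its spread is how the effects of transplant and treatment differ between the sexes, which includes the pattern of Cd8a. No group is repeated in it, so it does not measure variation between animals.

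**Figure D3:**
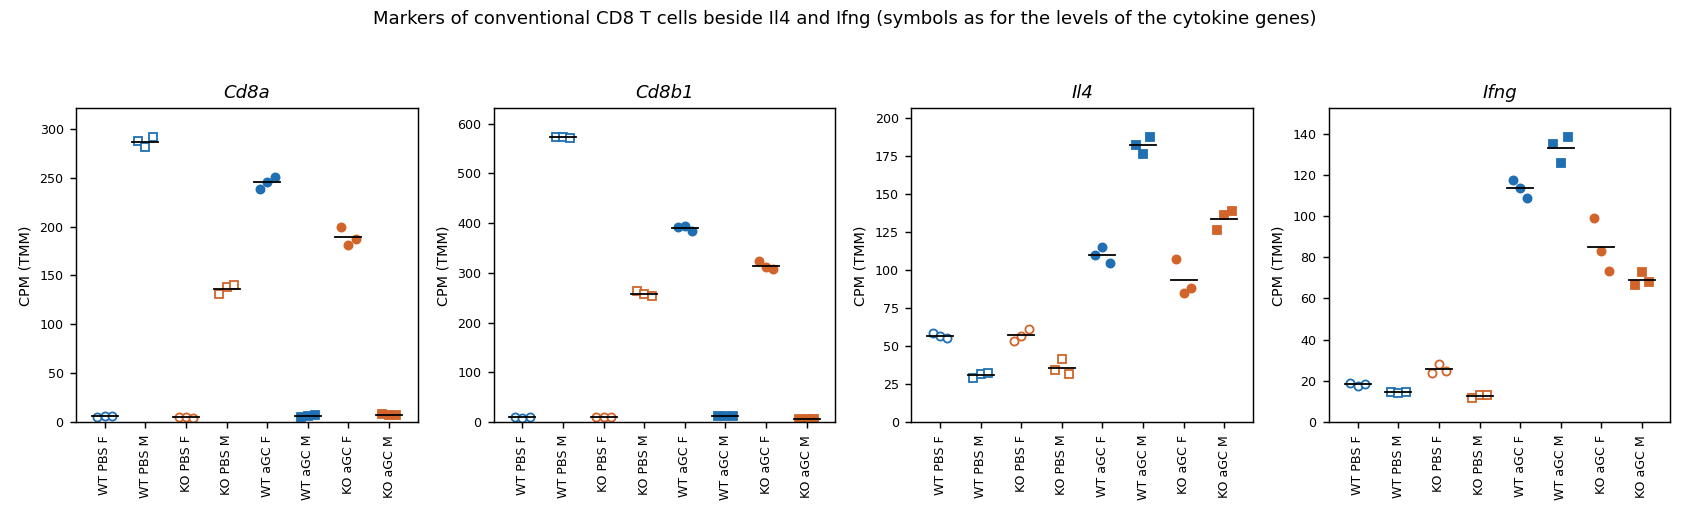
Cd8a and Cd8b1 beside Il4 and Ifng in the 24 libraries, in CPM scaled by TMM on linear axes from 0, with symbols for sex, treatment and transplant as in the plot of the 10 genes and lines at the mean of 3 libraries. Cd8a and Cd8b1 are high in PBS males and aGC females, while Il4 and Ifng are higher in all aGC groups than in all PBS groups.

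Levels of different genes were set side by side per kilobase of exon. On that scale Il4 was the highest of the 10 in 6 of the 8 groups, with 25.3 to 148 CPM per kb over the 8 groups. Lta was first in WT FT PBS males (32.1 against 25.3 CPM per kb for Il4) and Tnf in KO FT aGC females (87.2 against 76.3 CPM per kb for Il4). Csf2 was in the fifth place in every group, from 3.96 CPM per kb in WT FT PBS males to 40.5 CPM per kb in KO FT aGC females. Lif reached 5.42 CPM per kb and Il2 3.96 CPM per kb, both in WT FT aGC males, and Il13, Il21 and Il10 stayed at or under 1.09 CPM per kb. The 10 genes together took 0.0122% to 0.0157% of a library's counts in the PBS groups and 0.0433% to 0.0603% in the aGC groups, as group means. Ifng, Il4, Tnf and Lta supplied 87.3% to 97.4% of the members' counts in each library.

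The balance of Ifng and Il4 moved with aGC. The ratio of their counts, not corrected for length, was 0.325 ± 0.0141 (SD, n = 3) in WT FT PBS females, 0.475 ± 0.0323 in WT FT PBS males, 0.451 ± 0.0466 in KO FT PBS females and 0.361 ± 0.0565 in KO FT PBS males. After aGC it was 1.03 ± 0.0397, 0.729 ± 0.0167, 0.908 ± 0.0727 and 0.516 ± 0.0247 in the same order. Within each sex and transplant all 3 aGC libraries had a higher ratio than all 3 PBS libraries, and after aGC females were above males with both transplants. The ratio was given as a description and was not tested.

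**Figure D4:**
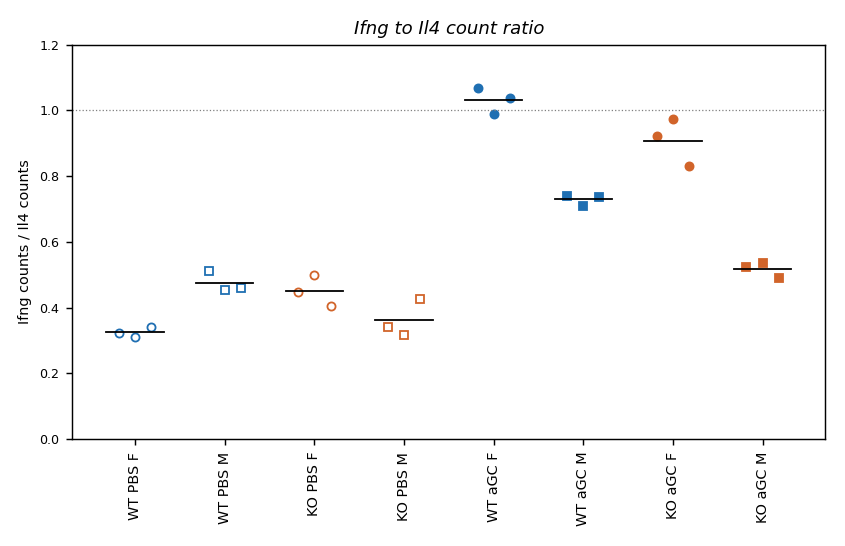
Ratio of Ifng to Il4 counts (y axis, linear from 0) in the 24 libraries by group, with symbols as in the plot of the 10 genes, lines at the mean of 3 libraries and a dotted line at equal counts. The aGC groups lie above the PBS groups of the same sex and transplant, and WT FT aGC females are near 1.

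With PBS, in females Ifng was higher with KO FT than with WT FT (log2 difference 0.47 ± 0.09, adjusted p = 0.000545 by edgeR), as was Il10, with 7 counts in all against 0, at least 2.86-fold higher. Lta was lower (-0.26 ± 0.06, adjusted p = 0.00200) and Lif was lower (-4.48 ± 0.39, adjusted p = 5.14e-08). That is 2 of 10 higher and 2 lower, where 14.9% of all tested genes were higher and 14.9% lower. In males Lif went the opposite way (4.12 ± 0.41, adjusted p = 9.20e-08) and Lta was again lower (-0.32 ± 0.06, adjusted p = 0.000143), 1 higher and 1 lower against 21.1% and 21.4% of all genes. Il4, Tnf, Csf2, Il2, Il21 and Il13 did not pass in either sex, with adjusted p-values of 0.0514 to 0.959, nor did Ifng in males (adjusted p = 0.116). The Il10 call was lost without any 1 of the 3 WT FT PBS female libraries or without replicate 2 or 3 of KO FT PBS females (adjusted p of 0.0565 to 0.106), and the Lta call in females was lost without the filter on low counts (adjusted p = 0.0649). Averaged over the sexes, Lta alone was lower (-0.29 ± 0.04, adjusted p = 2.01e-05), 0 members higher and 1 lower against 14.6% and 14.8% of all genes.

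After aGC, Ifng and Il4 were lower with KO FT in both sexes. For Ifng the log2 difference was -0.42 ± 0.08 in females (adjusted p = 0.000289) and -0.95 ± 0.08 in males (adjusted p = 4.25e-09), and no KO FT library reached the level of a WT FT library of the same sex. For Il4 it was -0.24 ± 0.08 in females (adjusted p = 0.0267), where 1 of the 3 KO FT libraries lay within the WT FT range, and -0.44 ± 0.08 in males (adjusted p = 0.000109), where the groups were separate. Tnf went opposite ways, 0.18 ± 0.06 in females (adjusted p = 0.0272) and -0.38 ± 0.06 in males (adjusted p = 2.63e-05). Females with KO FT also had lower Lta (-0.41 ± 0.06, adjusted p = 5.31e-06) and lower Il21 (-1.06 ± 0.40, adjusted p = 0.0378), and higher Csf2 (0.39 ± 0.10, adjusted p = 0.00234), Lif (0.73 ± 0.21, adjusted p = 0.00640) and Il10 (25 counts in all against 2, adjusted p = 0.00569).

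In count, 4 of 10 members were higher and 4 lower in females, where 19.0% of all tested genes were higher and 24.4% lower. In males 0 were higher and 3 lower, against 24.2% and 22.4% of all genes. Averaged over the sexes, Ifng (-0.68 ± 0.06), Il4 (-0.34 ± 0.06), Lta (-0.27 ± 0.04) and Il21 (-0.94 ± 0.27) were lower and Il10 (adjusted p = 0.00387) was higher. That is 1 of 10 higher and 4 of 10 lower, against 25.4% and 26.5% of all genes. Cd8a averaged 245 CPM with WT FT and 189 CPM with KO FT in aGC females, and 6.21 and 7.59 CPM in aGC males. In females, single libraries ended 3 of the 8 calls, and the same 3 ended without the filter on low counts. Il4 lost its call without replicate 1 or 2 of WT FT aGC females or replicate 2 or 3 of KO FT aGC females (adjusted p of 0.0556 to 0.137), and also with library totals in place of TMM (-0.11, adjusted p = 0.351) and in a fit of only the libraries compared (-0.15, adjusted p = 0.192). Il21 lost it without replicate 1 or 2 of WT FT aGC females or replicate 1 or 3 of KO FT aGC females (adjusted p of 0.0865 to 0.141), and with library totals (adjusted p = 0.0692). Tnf lost it without any 1 of the WT FT aGC female libraries or without replicate 2 or 3 of KO FT aGC females (adjusted p of 0.0518 to 0.103). On 1 profile per group no member passed in either transplant comparison averaged over the sexes, where 0 of all genes passed edgeR's adjusted threshold after PBS and 0 after aGC, with 255 and 1306 genes at an unadjusted p under 0.05.

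**Figure D5:**
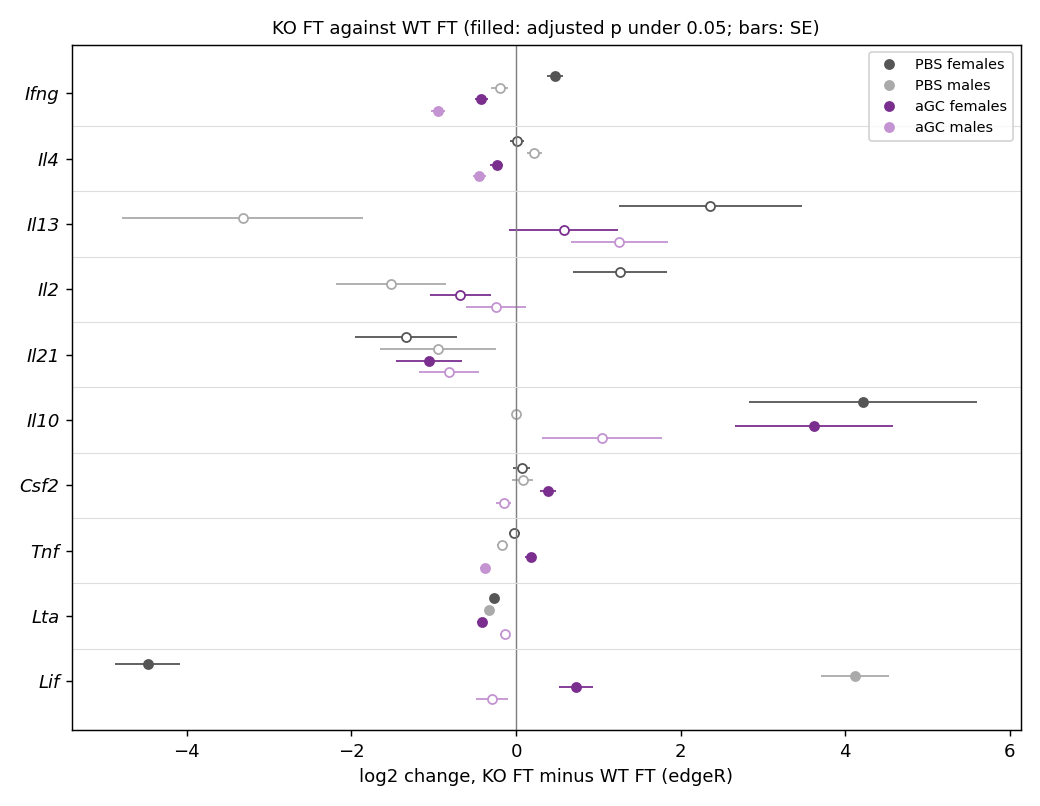
Log2 difference of KO FT from WT FT (x axis) for the 10 genes (y axis) after PBS and after aGC in females and males, with bars of 1 SE from edgeR's fit. Filled points passed an adjusted p of 0.05. The aGC points of Ifng and Il4 lie to the left of 0 in both sexes, and the PBS points of Lif lie on opposite sides of 0.

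Whether the transplant changed the response itself was read from the difference between the KO FT and WT FT log2 changes. Ifng rose less with KO FT in females (-0.89 ± 0.12, adjusted p = 4.39e-06) and in males (-0.75 ± 0.13, adjusted p = 9.01e-05). Il4 rose less with KO FT in males (-0.67 ± 0.12, adjusted p = 0.000158), while in females the difference did not pass (-0.25 ± 0.12, adjusted p = 0.103). Lif rose more with KO FT in females (5.21 ± 0.45) and less in males (-4.41 ± 0.47), with the uneven PBS levels given above. Il2 rose less with KO FT in females (-1.93 ± 0.68, adjusted p = 0.0247), a call lost without replicate 1 or 3 of WT FT PBS females, replicate 3 of WT FT aGC females, or replicate 2 or 3 of KO FT PBS females (adjusted p of 0.0559 to 0.0692). Il13 rose more with KO FT in males (adjusted p = 0.0293), a call lost without replicate 1 of WT FT PBS males (adjusted p = 0.0744), replicate 2 of KO FT PBS males (adjusted p = 0.0936), without the filter on low counts (adjusted p = 0.0588) and with DESeq2 (adjusted p = 0.0606).

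By count, 1 member had a larger and 2 a smaller response with KO FT in females, where 20.5% and 23.8% of all genes did, and 1 (Il13) had a larger and 3 (Ifng, Il4 and Lif) a smaller response in males, against 20.2% and 18.8%. Averaged over the sexes, Ifng (-0.82 ± 0.09, adjusted p = 1.77e-07) and Il4 (-0.46 ± 0.09, adjusted p = 0.000151) had a smaller response and no member a larger one, against 22.6% and 21.9% of all genes. The Ifng difference was larger among groups low in Cd8a than among groups high in it, a contrast that was not itself tested. Among groups low in Cd8a it was -1.42 ± 0.12 (adjusted p = 6.90e-09), and among groups high in Cd8a it was -0.22 ± 0.13 and did not pass (adjusted p = 0.201). For Il4 the same comparisons gave -0.45 ± 0.12 (adjusted p = 0.00343) and -0.46 ± 0.12 (adjusted p = 0.00629), and for Tnf -0.36 ± 0.09 (adjusted p = 0.00300) and 0.34 ± 0.09 (adjusted p = 0.00777), in opposite directions. On 1 profile per group, 0 members and 0 of all genes passed edgeR's adjusted threshold for this difference, with 628 genes at an unadjusted p under 0.05.

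Males and females differed in the size of the aGC response. With WT FT 6 of 10 members rose more in males, against 24.2% of all genes, and 0 rose less, against 23.5%. With KO FT 7 of 10 rose more in males, against 25.3% of all genes, and 1, Lif, rose less, against 21.4%. Ifng, Il4 and Csf2 rose more in males with both transplants, by 0.56 ± 0.13 and 0.70 ± 0.13 for Ifng, 1.60 ± 0.12 and 1.18 ± 0.12 for Il4 and 1.61 ± 0.15 and 1.05 ± 0.15 for Csf2 on the log2 scale, WT FT first. Sex and the level of Cd8a cannot be told apart here, since the PBS males and the aGC females were the groups high in Cd8a.

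Across the 8 group means of log2 CPM the members moved much alike. The 45 pairs of members had Pearson correlations of 0.623 to 0.978, with a median of 0.877, given as a description of 8 points that share the step from PBS to aGC. Ifng and Il2 were the most alike pair, and Il10 and Lta the least. Among 10518 genes with at least 5 CPM in a group, those most like Ifng were Stx11 (r = 0.995), which encodes a syntaxin of cytotoxic granule release, Gm13461 (r = 0.994) and Map3k8 (r = 0.994), a kinase of inflammatory signaling. Those most like Il4 were Set (r = 0.995), M6pr (r = 0.990) and Cks1b (r = 0.987). Tnf was most like Odc1 (r = 0.995), the first enzyme of polyamine synthesis, Fam83g (r = 0.994) and Eprs (r = 0.994). Csf2 was most like Tnfsf14 (r = 0.983), Ccl4 (r = 0.982) and Rmdn3 (r = 0.980), the first a cytokine of the tumor necrosis factor family and the second a chemokine. Lta was most like Begain, Bclaf1 and Scarb1 (r of 0.981 to 0.983), Il21 most like Ak7, Ttc39b and 1110032F04Rik (r of 0.992 to 0.994), and Lif most like Api5, Srpr and Ssx2ip (r of 0.974 to 0.986).

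Among all tested genes, averaged over the sexes, 30.9% rose and 37.5% fell after aGC with WT FT, and 28.1% rose and 30.1% fell with KO FT, the shares beside which the counts of 4 lists of related genes stand. Of a list of 27 other cytokine genes, 13 could be tested, and averaged over the sexes 4 rose and 7 fell after aGC with WT FT, with a median log2 change of -0.36 against -0.11 for all genes, and 6 rose and 6 fell with KO FT, with a median of 0.19 against -0.03. Xcl1, a chemokine that draws cross-presenting dendritic cells, rose by 1.35 ± 0.06 with WT FT and 1.00 ± 0.06 with KO FT on the log2 scale. Tgfb1, a restraining cytokine, rose by 0.58 ± 0.04 and 0.89 ± 0.04. Flt3l, a growth factor of dendritic cells, changed by -1.27 ± 0.05 and -1.20 ± 0.05, and Il16, a T cell attractant, by -0.75 ± 0.04 and -0.44 ± 0.04. All of these passed edgeR's test. Il17a, Il5, Il3 and Il6 did not have enough counts to be tested.

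Receptors of the members moved in both directions. Of 20 on the list 16 were tested, of which 6 rose and 9 fell with WT FT (median -0.17) and 7 rose and 6 fell with KO FT (median -0.07). Il2ra, the inducible chain of the interleukin 2 receptor, rose by 1.81 ± 0.04 and 1.45 ± 0.04, and Il10ra rose by 0.77 ± 0.07 and 0.62 ± 0.07, WT FT first. Ifngr1, the binding chain of the interferon gamma receptor, changed by -1.28 ± 0.04 and -1.34 ± 0.04, and Il10rb by -0.64 ± 0.05 and -0.53 ± 0.05. After aGC, KO FT was higher than WT FT for 7 of the 16 and lower for 2, against 25.4% and 26.5% of all genes, with Il2rb at 0.33 ± 0.03 and Tnfrsf1b at 0.34 ± 0.04 among the higher.

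Transcription factors known to act on these genes moved in both directions. Of 35 tested, 18 rose and 13 fell with WT FT (median 0.14) and 20 rose and 10 fell with KO FT (median 0.39). Irf4, induced by receptor signals, rose by 3.18 ± 0.07 with WT FT and 3.18 ± 0.07 with KO FT. Egr2, a target of NFAT, rose by 1.75 ± 0.04 and 1.72 ± 0.04, Eomes, a T-box factor, by 3.39 ± 0.09 and 3.19 ± 0.09, and Stat5a, which acts downstream of interleukin 2, by 1.91 ± 0.05 and 2.04 ± 0.06. After aGC, 17 of the 35 were higher with KO FT and 9 lower, against the same shares of all genes. Among the higher were the NFAT genes Nfatc3 (1.00 ± 0.05) and Nfatc1 (0.54 ± 0.03). Ifng and Il4 were lower in the same groups, and a link between these levels was not tested.

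RNA-binding regulators of cytokine messages also moved in both directions. Of 17, all tested, 4 rose and 9 fell after aGC with WT FT (median -0.16) and 8 rose and 4 fell with KO FT (median 0.18). Elavl1, whose product (HuR) stabilizes messages, rose by 0.76 ± 0.03 and 0.65 ± 0.03. Zfp36l2, whose product speeds decay of messages with AU-rich elements, changed by -1.39 ± 0.06 and -0.51 ± 0.06, and Arid5a, which protects some cytokine messages, by -1.10 ± 0.05 and -0.93 ± 0.05. In aGC groups, 11 of the 17 were higher with KO FT and 2 lower, against 25.4% and 26.5% of all genes, with a median log2 difference of 0.35 against 0.0014 for all genes. Zfp36l2 (0.88 ± 0.06), Khsrp (0.83 ± 0.07), a decay factor, and Nufip2 (0.81 ± 0.07), a partner of the roquin proteins, were among the higher, and Elavl1 (-0.30 ± 0.03) was among the lower. With library totals in place of TMM the median of all genes moved to 0.13 in this comparison.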

How the data were processed

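RNA of sorted iNKT cells was measured by sequencing of Nextera XT libraries, which do not keep the strand, per the labels' protocols. The authors deposited expected counts per gene, in whole numbers, made with kallisto on GRCm38 (mm10), per the submitters' processing notes. Its version, the annotation and the way transcripts were summed were not given in the sources used here. Of 55335 genes, 55154 matched GENCODE M21 by Ensembl identifier. Genes were kept with filterByExpr (minimum count 10, minimum total 15), which left 15953. edgeR 4.0.16 (R 4.3.3) scaled the counts by TMM and fitted 8 group means over 24 libraries by quasi-likelihood, with 16 residual degrees of freedom. All 17 comparisons were two-sided contrasts, adjusted by Benjamini-Hochberg over all tested genes with a threshold of 0.05. SE was taken as the log2 change over the root of F. The fit was tested on simulated counts. Alternatives were RLE scaling, no filter, a threshold of 0.01, glmTreat at 1.5-fold, the replicate number as a block, DESeq2 1.42.0, only the libraries compared, each library left out and 1 profile per group. Groups of like Cd8a and library totals without TMM were added after the data were seen. Same-numbered libraries of different groups did not deviate together (median r of -0.02 over 84 pairs), so numbers were not taken as pairs. Within a group, counts of 2 libraries varied 4.11 to 16.4 times as much as counting error gives (chi-square over its degrees of freedom). The 10 genes and the gene lists were chosen with earlier results of these data known, and all members are named. Of each list, up to 4 genes with the lowest adjusted p in a comparison are named. Genes most like a member are the 3 with the highest correlation over 8 group means.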

Additional observations from a re-analysis of the deposited data

Results flagged for a closer look

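Differences in the aGC response between groups passed edgeR's test of the difference itself (adjusted p under 0.05) for several members, each given as a log2 difference. Between KO FT and WT FT, Ifng differed by -0.89 in females, -0.75 in males and -0.82 averaged over the sexes. Il4 differed by -0.67 in males and -0.46 averaged over the sexes, Il2 by -1.93 in females, and Lif by 5.21 in females and -4.41 in males. Il13 differed by 4.57 in males, a fitted value that rests on 0 counts in all 3 libraries of KO FT PBS males and is no bound.

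Between males and females with WT FT, the response of Ifng differed by 0.56, Il4 by 1.60, Csf2 by 1.61, Tnf by 0.52, Lif by 6.12 and Il21 by 1.86. The Il21 difference did not pass without replicate 2 or 3 of WT FT PBS females, replicate 2 of WT FT PBS males or replicate 2 of WT FT aGC males (adjusted p of 0.0516 to 0.148), nor without the filter on low counts (adjusted p = 0.0647). With KO FT, Ifng differed by 0.70, Il4 by 1.18, Csf2 by 1.05, Lta by 0.35, Il2 by 2.35 and Lif by -3.50. Il13 differed by 5.27 and Il10 by 4.15, fitted values that rest on 0 counts in KO FT PBS males and are no bounds. The Il10 difference did not pass without any 1 of 10 of the 12 KO FT libraries (adjusted p of 0.0535 to 0.134), the exceptions being replicate 1 of KO FT PBS females and replicate 2 of KO FT aGC males. PBS males and aGC females were the groups high in Cd8a, so sex and Cd8a cannot be told apart in these male to female differences.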

How the results depend on the processing

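In all 1860 recomputed values of single members the direction was kept, and 122 fell short of the threshold. These values are mainly of members already called in the main fit, for which a kept direction says little. They do not cover all 10 members in all 17 comparisons. The replicate block changed 1 of 106 calls (Il10, male against female response with KO FT, adjusted p = 0.0656), and RLE scaling none of 106. Counts of members past the threshold that moved by over 1.5 times were these. For KO FT against WT FT in aGC females (8), no filter gave 5, a threshold of 0.01 gave 5, and leaving out single libraries gave 5 to 7, with 5 without replicate 1 or 2 of WT FT aGC females or replicate 3 of KO FT aGC females. In aGC males (3), DESeq2 gave 5 and only the libraries compared gave 5. After PBS averaged over the sexes (1), leaving out single libraries gave 1 to 2, with 2 without replicate 1 of WT FT PBS females, replicate 2 of WT FT PBS males or replicate 1 of KO FT PBS females. At a fold of 1.5 with glmTreat, KO FT against WT FT kept 1 in PBS females (Lif), 1 in PBS males (Lif), 1 in aGC females (Il10) and 1 in aGC males (Ifng). Averaged over the sexes it kept 0 after PBS and 1 after aGC (Il10). Ifng was thus lost in aGC females and in the average after aGC (adjusted p = 0.148), and Il4 in all of these. The difference in response kept 1 in males (Lif) and 1 averaged over the sexes (Ifng), and the male to female difference kept 3 with WT FT and 5 with KO FT. On 1 profile per group, the aGC response with KO FT kept 4 of 10, and 0 passed for the transplant difference after PBS, after aGC and for the difference in response. Library totals without TMM gave 5 for the difference in response in females (3), and groups low in Cd8a gave 4 for the difference averaged over the sexes (2). Library totals shifted the median of all genes to -0.19 and -0.24 for aGC in WT FT females and males. They moved the split over all genes after aGC, KO FT against WT FT averaged over the sexes, from 4049 higher and 4229 lower to 5431 and 2836. The spread (edgeR's biological coefficient of variation) was 0.108 between libraries of a group and 0.424 on 1 profile per group. The latter holds differences between the sexes in the effects of transplant and treatment, and not variation between animals of a group. Il10 and Il13 rest on at most 34 counts in a library, which limits their precision.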
